A study of Mus musculus with 60 samples.

Results

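Ribosome biogenesis and nucleolar genes were examined in liver and inguinal white adipose tissue of diet-induced obese mice. The group holds 39 of the 54343 gene symbols in the deposited tables. Its members were taken by symbol from a list of nucleolar factors plus Myc. That list was drawn up with results of these data in view, and the record of the choice names no contrast, so no contrast below is independent of it. The values are descriptions of these 39 genes, read beside the same counts over all genes tested.

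The study used 2 mouse lines, one with floxed Glp1r alleles (Glp1rfl/fl) and one with floxed Gipr alleles (Giprfl/fl), which encode the receptors of GLP-1 and of GIP, hormones the gut releases on feeding. In each line and tissue 3 groups of 5 libraries were compared: floxed mice on Vehicle, floxed mice treated with mGIPR-Ab/P1, and knockout mice on Vehicle. This makes 60 libraries. mGIPR-Ab/P1 is an antibody against the GIP receptor joined to a GLP-1 peptide, and is called the conjugate below. The knockouts are Glp1rWnt1-/- in the Glp1r line and GiprSyn-/- in the Gipr line, and the names point to Wnt1 and synapsin, genes known from the nervous system, as the drivers of the deletion. Whether liver or fat cells lost the receptor was not examined here. All groups share the obese state, the controls carry the floxed alleles, and no knockout mouse given the conjugate is among these samples. The labels used here give no sex, age, dose or length of treatment. Libraries are labelled as biological replicates, and whether a liver and an adipose library with the same number come from 1 mouse is not stated. Where they do not come from separate mice, the tests measure only the spread between these samples.

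The nucleolus makes ribosomes. RNA polymerase I transcribes the long ribosomal RNA precursor there. Small nucleolar ribonucleoproteins then modify it, the C/D kind by adding methyl groups to ribose and the H/ACA kind by turning uridine into pseudouridine. Large assemblies of further factors fold, cut and export the small and the large ribosomal subunit. The transcription factor Myc is known to raise many of these genes when cells grow, and it binds DNA at E-boxes such as CACGTG. In liver this machinery follows growth and feeding, and in lymphocytes it rises on activation.

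The promoters of 4 members are shown first, because they belong to 4 of the 5 genes that were called higher in Glp1r-line liver under the conjugate and had a RefSeq promoter entry. Each run is the 250 bases before the annotated start, 5′ to 3′ on the strand of the gene, in GRCm38.p6. Capitals mark the E-box CACGTG or its variant CACGCG, the latter read on either strand (CGCGTG is its reverse complement).
Nop2 (chr6:125131633-125131882, plus strand): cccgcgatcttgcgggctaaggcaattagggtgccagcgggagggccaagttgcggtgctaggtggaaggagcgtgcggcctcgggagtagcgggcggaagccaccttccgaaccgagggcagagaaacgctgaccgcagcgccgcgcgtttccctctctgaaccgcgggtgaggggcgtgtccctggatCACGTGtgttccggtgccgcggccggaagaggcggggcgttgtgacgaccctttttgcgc
Nolc1 (chr19:46075597-46075846, plus strand): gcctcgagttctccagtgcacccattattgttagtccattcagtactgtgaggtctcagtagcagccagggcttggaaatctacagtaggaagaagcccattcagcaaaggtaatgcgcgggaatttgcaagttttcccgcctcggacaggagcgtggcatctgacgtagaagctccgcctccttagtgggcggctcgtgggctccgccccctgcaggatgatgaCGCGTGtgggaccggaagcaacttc
Polr1c (chr17:46248046-46248295, minus strand): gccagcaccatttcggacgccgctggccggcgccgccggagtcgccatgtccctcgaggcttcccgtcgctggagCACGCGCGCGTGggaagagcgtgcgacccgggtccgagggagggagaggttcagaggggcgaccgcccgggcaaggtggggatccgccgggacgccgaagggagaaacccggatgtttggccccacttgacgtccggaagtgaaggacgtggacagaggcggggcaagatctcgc
Nop16 (chr13:54590075-54590324, minus strand): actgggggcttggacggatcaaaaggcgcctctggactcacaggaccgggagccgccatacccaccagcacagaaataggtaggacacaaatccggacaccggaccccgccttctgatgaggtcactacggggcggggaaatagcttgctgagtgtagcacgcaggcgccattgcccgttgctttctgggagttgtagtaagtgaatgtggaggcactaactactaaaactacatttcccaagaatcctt
Nop2 holds the E-box CACGTG beginning 60 bases before the start. Nolc1 holds the variant 25 bases before the start, Polr1c holds 2 adjacent copies on opposite strands beginning 175 bases before it, and neither form is in the Nop16 window. Polr1b, the gene of that set whose promoter is not printed, also holds neither form in its window.

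RefSeq promoter entries matched 33 of the 39 members, with Fbl, Rrp12, Rrs1, Bop1, Npm1 and Myc unmatched. In the 250-base windows CACGTG was present for 1 of the 33 members (3.03%) and for 6.86% of 27025 genes. CACGCG was present on either strand for 5 members, Nip7, Nolc1, Pes1, Polr1c and Utp14a (15.2%), and for 8.65% of all genes. The core of the ETS factor motif, CCGGAA on either strand, was present for 11 members (33.3%), Polr1c, Nolc1 and Nop2 among them, and for 13.6% of all genes. Members also had more G and C, with a median of 57.4% against 52.4% over all promoters. A match is a run of letters in the window and no evidence of binding.

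Expression is in FPKM, a value per transcript length and per library total. Estimated depth was 31.8 to 57.2 M fragments in liver and 29.97 to 64.5 M fragments in adipose tissue. In Gipr-line adipose tissue conjugate replicate 5 and knockout replicate 5 had 56.7 and 64.5 M fragments, and the vehicle libraries 30.6 to 39.3 M. Both carry library numbers of a higher series, as do vehicle replicate 5 and conjugate replicates 4 and 5 in liver of that line. No vehicle adipose library does, and what the series stands for is not stated in the labels. Hepatocyte markers reached 1 FPKM for 8 of 8 genes in every liver library, and adipocyte markers for 8 of 8 in every adipose library. In adipose libraries 2 to 8 of the 8 hepatocyte genes also reached it. Their mean log2(FPKM + 1) was 4.93 in Glp1r-line adipose vehicle replicate 1, against 1.24 to 2.06 in the rest of its group. It was 3.14 and 3.21 in knockout replicates 3 and 5 of that table, and the part of this signal was not tested. The 9 B cell markers summed to 0.617 to 10.5 FPKM in liver but 2.61 to 916 FPKM in adipose tissue. A mean B cell marker level above 5 on the log2(FPKM + 1) scale was taken as the limit, and 6 adipose libraries lay above it. In the Glp1r line these were vehicle replicate 2 and knockout replicates 1 and 3, at 5.5 or more, and the other 12 lay at 1.04 or below. In the Gipr line these were conjugate replicate 1 and knockout replicates 1 and 5, at 5.89 or more. The other 12 were spread from 0.888 to 4.41 there, so the limit does not divide that line into 2 classes. Libraries called rich in B cell markers below are those above the limit. Adipose contrasts are therefore given with and without these 6. In bulk tissue, fewer cells of a type and less RNA per cell cannot be told apart.

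All 39 members reached the level needed for testing, at least 1 FPKM in at least 5 of the 15 libraries of a table, in all 4 tables. The members spanned a wide range of levels, and their order was similar in both lines. In Glp1r-line vehicle livers the lowest mean was that of Rrp12, 1.11 ± 0.118 FPKM (SD, n = 5), and the highest that of Npm1, 65.8 ± 1.94 FPKM. Npm1 encodes nucleophosmin, an abundant chaperone of the granular part of the nucleolus. Nop10, a small H/ACA protein, and Rrp1, a large-subunit factor, followed with 29.4 ± 1.05 and 26.2 ± 1.31 FPKM. Between vehicle groups, 29 of 39 members were higher in adipose tissue than in liver with no overlap of the libraries in the Glp1r line, where 62.4% of all 9834 genes compared were, and no member was lower without overlap, as 12.4% of all genes were. In the Gipr line the count was 28 of 39, against 61.1% of 10236 genes, and 0 were lower, against 13.1%. The median member stood 0.65 higher in adipose tissue on the log2 scale in the Glp1r line and 0.69 higher in the Gipr line, against 0.66 and 0.66 for all genes. The tables may have been normalized separately, so these levels are set side by side with no test. Npm1 has near-identical pseudogene copies, between which the authors' counting could split reads, so its level is uncertain.

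Within the group the tissues differed by gene. Myc averaged 1.18 ± 0.415 FPKM in liver and 5.33 ± 0.643 in adipose in the Gipr line and 1.19 ± 0.234 FPKM in liver and 5.28 ± 5.64 in adipose in the Glp1r line (SD, n = 5). The Glp1r-line adipose mean of Myc rests on vehicle replicate 2, at 15.4 FPKM against 2.64 to 2.86 in the other 4. Rrp12, a factor in the export of small-subunit precursors, averaged 1.11 ± 0.118 FPKM in liver and 4.36 ± 0.649 in adipose in the Glp1r line. The helicase Ddx21 averaged 5.76 ± 0.164 FPKM in liver and 15.1 ± 7.30 in adipose, where vehicle replicate 2 stood at 28.1 FPKM and the other 4 at 11.5 to 12.2. At the other end, Nop10 averaged 29.4 ± 1.05 FPKM in liver and 28.4 ± 2.15 in adipose and Nop16 10.3 ± 0.616 FPKM in liver and 11.03 ± 0.758 in adipose, with overlapping libraries. Fbl, the methyltransferase fibrillarin, averaged 17.3 ± 0.737 FPKM in liver and 22.7 ± 16.7 in adipose, and its adipose SD rests on vehicle replicate 2, which stood at 52.6 FPKM against 14.7 to 16.1 in the other 4.

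**Figure D1:**
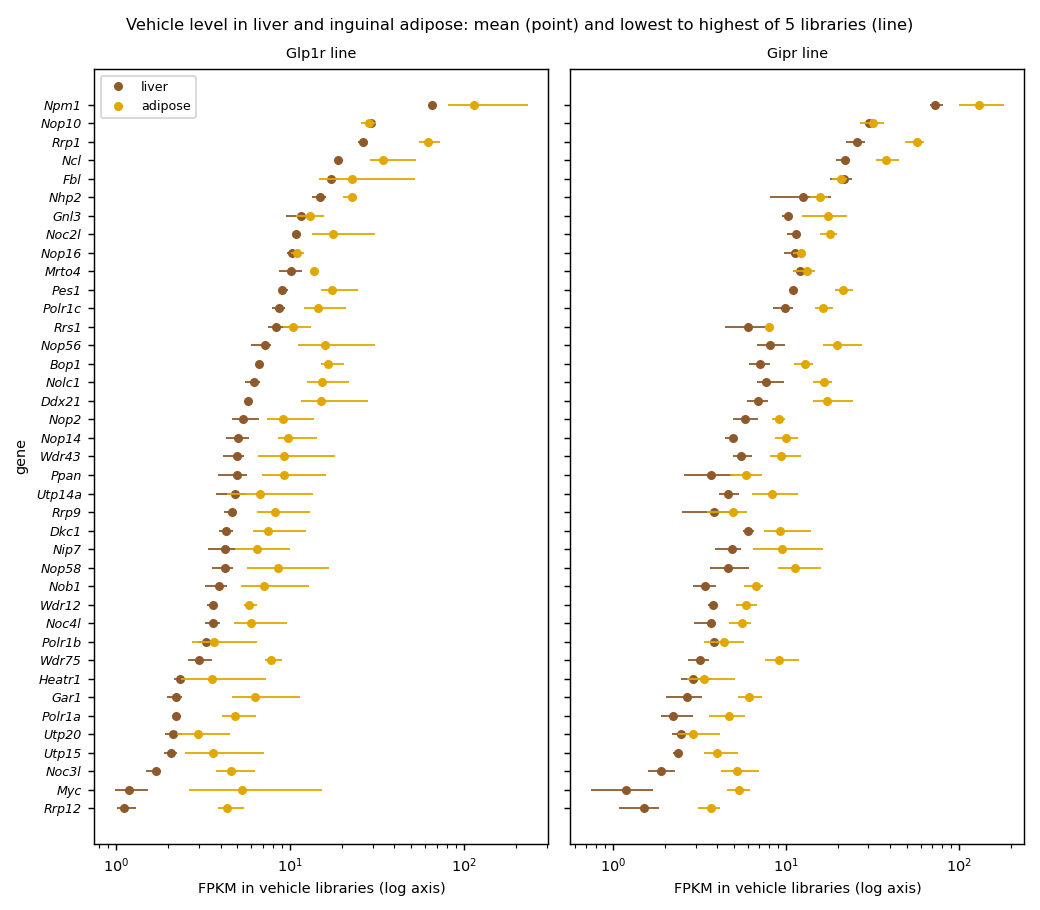
FPKM of the 39 genes on a log axis in vehicle libraries of the Glp1r line (left) and the Gipr line (right), liver in brown and adipose in yellow; points are means and lines run from the lowest to the highest of 5 libraries. Most adipose points lie to the right of the liver points, as 29 and 28 of the 39 do without overlap, while Nop10 and Nop16 coincide.

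Each group was then compared with the floxed vehicle group of its own line and tissue in 8 contrasts. The conjugate and the knockout contrast of a table therefore use the same 5 vehicle libraries. A gene was called at an adjusted p under 0.05 over all genes tested in its table. Of the 39 members, 11 were called in at least 1 contrast and 0 in more than 1. The calls fell in 3 contrasts, with 7 in Glp1r-line liver under the conjugate, 1 in Glp1r-line adipose under the conjugate and 3 in Gipr-line adipose of the knockout.

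**Figure D2:**
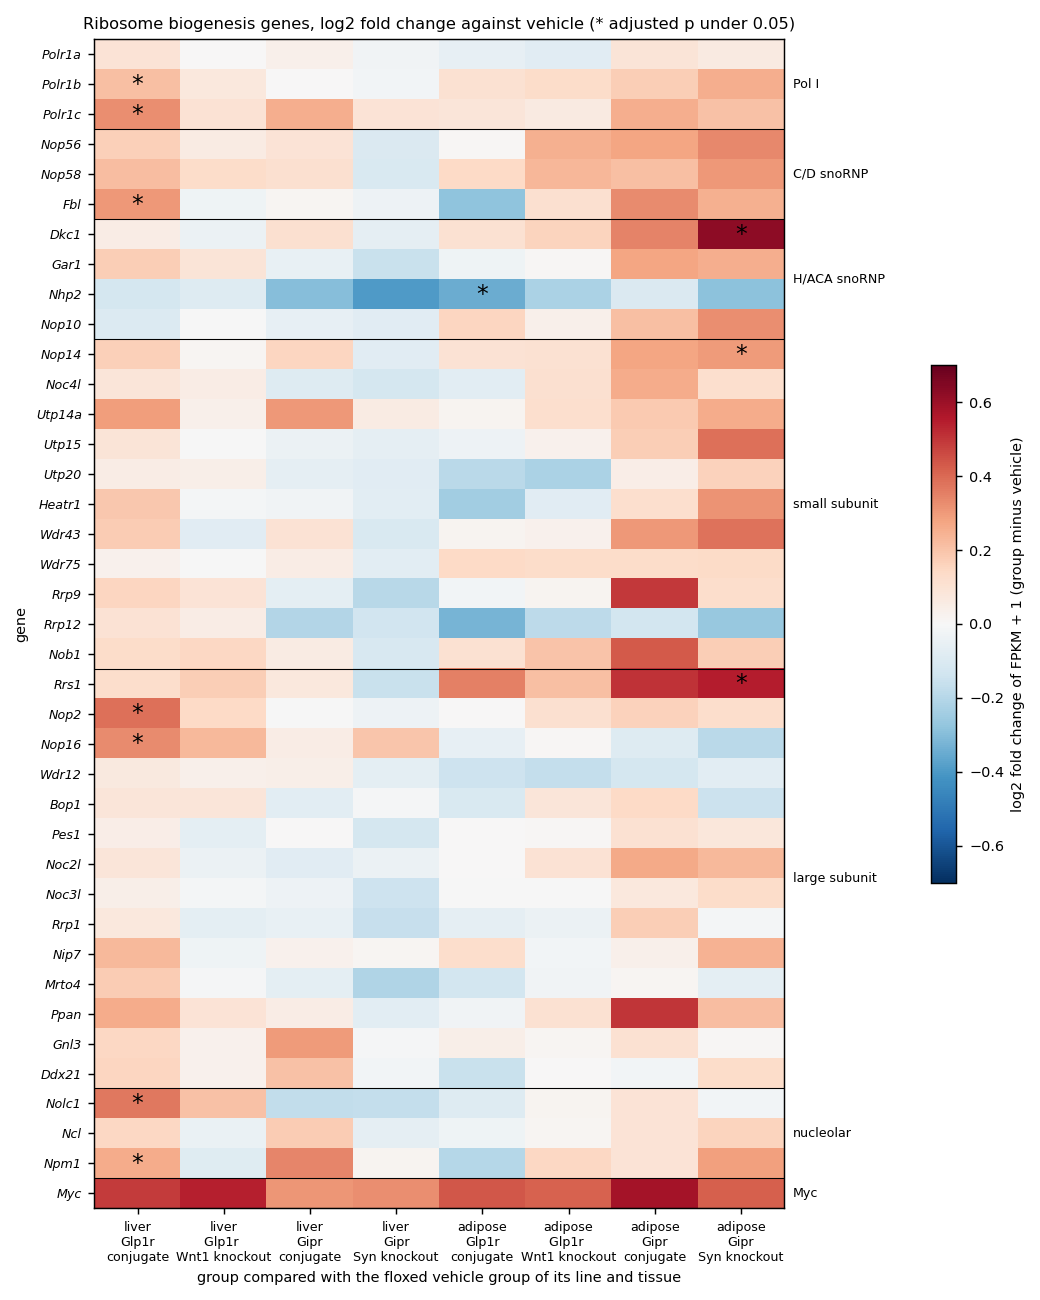
Log2 fold change of FPKM + 1 against vehicle for the 39 genes (rows, grouped by role) in the 8 contrasts (columns), red for higher and blue for lower, with an asterisk where the adjusted p was under 0.05. The asterisks in the first column mark the 7 members higher in Glp1r-line liver under the conjugate, and 4 more stand in the adipose columns.

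In Glp1r-line liver the conjugate went with higher levels of 7 members and lower levels of 0, where 5.68% of 10858 genes were called higher and 4.69% lower. The 7 were the polymerase I subunits Polr1b and Polr1c, the methyltransferase Fbl, the large-subunit factors Nop2 and Nop16, and the nucleolar proteins Nolc1 and Npm1. Fold changes were positive for 37 of 39 members, with a median of 0.15 on the log2 scale against 0.013 for all genes. The largest change among the 7 was that of Nop2, 0.39. Conjugate and vehicle libraries did not overlap for 7 members, all higher, as for 5.14% of all genes.

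Polr1c encodes a subunit that RNA polymerases I and III share. Its vehicle livers stood at 9.36, 7.96, 8.28, 8.89 and 8.95 FPKM in replicates 1 to 5 and its conjugate livers at 11.6, 10.1, 12.2, 10.1 and 11.6 FPKM. Every conjugate library lay above every vehicle library (log2 fold change 0.32 ± 0.062 (SE), adjusted p = 0.00834). Polr1b, the second largest subunit of polymerase I, ran from 2.95 to 3.53 FPKM under vehicle and from 3.50 to 4.32 FPKM under the conjugate, with 1 conjugate library inside the vehicle range (log2 fold change 0.21 ± 0.055 (SE), adjusted p = 0.0264). Polr1a, the largest and catalytic subunit, was not called, at 2.10, 2.28, 2.11, 2.23 and 2.36 FPKM under vehicle and 3.15, 2.03, 2.18, 2.46 and 2.44 FPKM under the conjugate (log2 fold change 0.094 ± 0.071 (SE), adjusted p = 0.419). Its conjugate replicate 1 was the highest library and the others overlapped the vehicle range.

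Fbl is the enzyme of the C/D small nucleolar ribonucleoproteins. It stood at 18.6, 16.9, 16.8, 17.4 and 17.1 FPKM under vehicle and 21.98, 20.1, 22.2, 21.3 and 22.8 FPKM under the conjugate. The groups did not overlap (log2 fold change 0.30 ± 0.050 (SE), adjusted p = 0.00458). Its partners Nop56 and Nop58 were not called, with log2 fold changes of 0.16 and 0.22. Among the H/ACA proteins, Gar1 was higher without overlap, at 1.98 to 2.40 FPKM under vehicle and 2.54 to 2.84 FPKM under the conjugate, but missed the threshold (log2 fold change 0.17 ± 0.061 (SE), adjusted p = 0.0804). The pseudouridine synthase Dkc1 had a log2 fold change of 0.052, and the only negative members were its partners Nop10 and Nhp2, at -0.094 and -0.12.

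Nop16, a protein of early large-subunit precursors, had the smallest adjusted p of the members. Its libraries stood at 10.98, 10.7, 9.79, 9.58 and 10.6 FPKM under vehicle and 14.1, 13.6, 12.004, 13.4 and 13.4 FPKM under the conjugate. Every conjugate library was above every vehicle library (log2 fold change 0.33 ± 0.051 (SE), adjusted p = 0.00326). Nop2, which methylates the RNA of the large subunit, stood at 5.04, 4.67, 5.30, 5.42 and 6.63 FPKM under vehicle and 8.77, 5.72, 6.34, 7.90 and 8.44 FPKM under the conjugate. Vehicle replicate 5 lay inside the conjugate range and 4 of 5 vehicle libraries lay below it (log2 fold change 0.39 ± 0.11 (SE), adjusted p = 0.0403). None of the other 12 large-subunit members was called, and all had positive fold changes, from 0.042 for Noc3l to 0.26 for Ppan. None of the 11 small-subunit members was called either, and all 11 were positive. Utp14a, which acts with a helicase on the small-subunit precursor, came nearest (log2 fold change 0.29 ± 0.094 (SE), adjusted p = 0.0585). Heatr1, a factor of the same early precursor, was higher without overlap and not called, at 2.16 to 2.46 FPKM under vehicle and 2.49 to 3.50 FPKM under the conjugate (log2 fold change 0.19 ± 0.075 (SE), adjusted p = 0.118).

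Nolc1 is a chaperone of small nucleolar ribonucleoproteins. It stood at 6.26, 5.54, 5.88, 6.74 and 6.78 FPKM under vehicle and 10.4, 7.26, 7.14, 9.06 and 8.23 FPKM under the conjugate, with no overlap (log2 fold change 0.37 ± 0.090 (SE), adjusted p = 0.0203). Npm1 stood at 64.8, 66.8, 65.5, 68.6 and 63.5 FPKM under vehicle and 85.6, 77.3, 91.3, 68.6 and 74.03 FPKM under the conjugate, where the lowest conjugate library was only just above the highest vehicle library (log2 fold change 0.26 ± 0.067 (SE), adjusted p = 0.026). Nucleolin, encoded by Ncl, was not called, at 19.7, 18.4, 19.9, 18.2 and 18.8 FPKM under vehicle and 22.2, 19.6, 22.96, 19.6 and 21.5 FPKM under the conjugate (log2 fold change 0.14 ± 0.052 (SE), adjusted p = 0.0888), with overlap. Myc stood at 0.990, 0.992, 1.33, 1.10 and 1.53 FPKM under vehicle and 0.946, 1.20, 3.93, 1.55 and 3.96 FPKM under the conjugate. Conjugate replicates 3 and 5 were high and the other 3 lay near the vehicle range, and Myc was not called (log2 fold change 0.49 ± 0.39 (SE), adjusted p = 0.443).

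**Figure D3:**
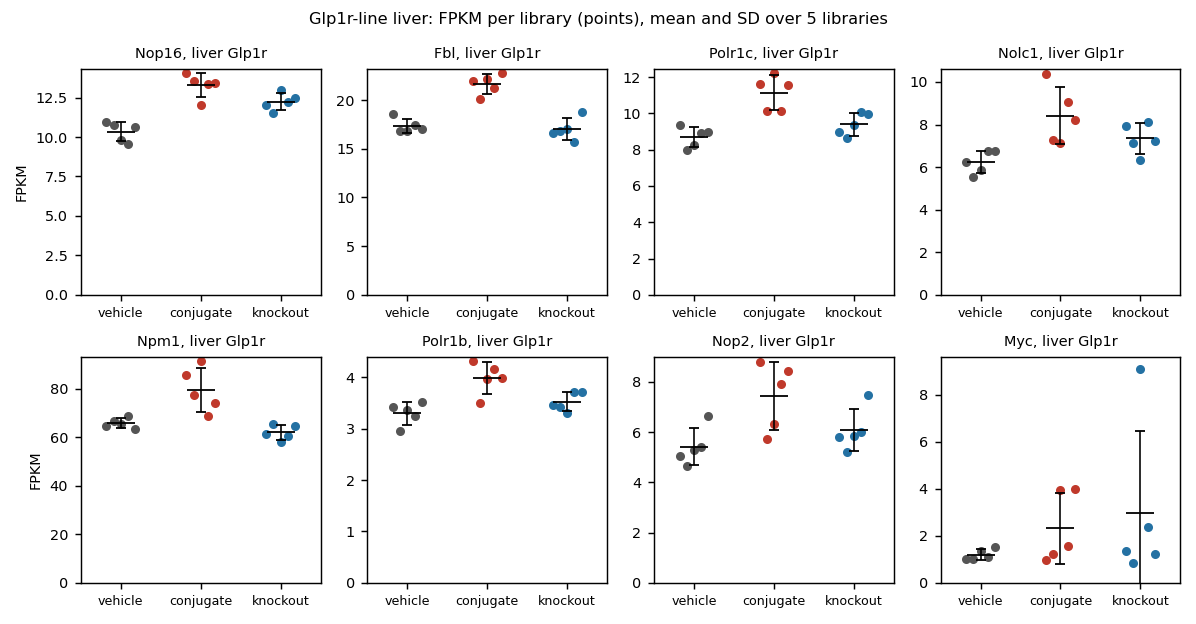
FPKM per library (points) in Glp1r-line liver for the 7 genes called under the conjugate and for Myc, with the mean and SD over 5 libraries (black) in vehicle, conjugate and Glp1rWnt1-/- knockout groups. Conjugate points of Nop16, Fbl, Polr1c, Nolc1 and Npm1 all lie above the vehicle points, while Myc overlaps.

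Lists of other ribosome genes, also chosen with earlier results known, were counted beside the members in this contrast. Of 134 further biogenesis factors tested, 20 were called higher and 0 lower, with a median log2 fold change of 0.097. They included Emg1, a methyltransferase of the small subunit (24.9 to 32.4 FPKM, log2 fold change 0.36 ± 0.053 (SE), adjusted p = 0.0027), and Mak16, a large-subunit factor (4.40 to 5.82 FPKM, log2 fold change 0.34 ± 0.072 (SE), adjusted p = 0.0123). Other called genes were the polymerase subunit Polr2h (0.30), Imp3 and Pdcd11 in the small subunit (0.33 and 0.27) and Rsl24d1 and Nop53 in the large subunit (0.24 and 0.23). The assembly factor Ruvbl2 (0.27) and the exosome subunits Exosc2 and Exosc4 (0.24 and 0.22) were also called, all on the log2 scale. Of 79 cytosolic ribosomal protein genes, 40 were called higher and 0 lower, with a median of 0.19. Rps28 rose most among them (161 to 212 FPKM, log2 fold change 0.40 ± 0.072 (SE), adjusted p = 0.00657), followed by Rps27 (207 to 269 FPKM, log2 fold change 0.38 ± 0.063 (SE), adjusted p = 0.00458) and Rps18 (289.7 to 359.8 FPKM, log2 fold change 0.31 ± 0.057 (SE), adjusted p = 0.00657). Of 12 host genes of small nucleolar RNAs, 5 were called higher and 0 lower, including Snhg1 (7.49 to 11.1 FPKM, log2 fold change 0.51 ± 0.13 (SE), adjusted p = 0.0261), Zfas1 (9.56 to 13.1 FPKM, log2 fold change 0.41 ± 0.089 (SE), adjusted p = 0.0124) and Snhg12 (log2 fold change 0.31). Ribosomal protein genes have many pseudogene copies, so their single values are uncertain. Of 8 genes of the Myc network, 0 were called by limma and 0 had an unadjusted p under 0.05.

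Depth moved with these groups. Glp1r-line conjugate livers had an estimated 31.8 to 35.6 M fragments and vehicle livers 47.6 to 54.8 M fragments, with no overlap, so treatment and depth cannot be told apart in this contrast. With depth as a term in the model 0 members and 0 of all genes were called, and the log2 fold change of Polr1c turned to -0.11, adjusted p = 0.829; over the 11 alternatives other than leaving out a library its adjusted p ran from 0.00316 to 0.829. Adipocyte markers were also lower in the conjugate livers, at a mean of 1.21 to 1.75 against 1.79 to 2.06 on the log2(FPKM + 1) scale, with 1 of 4 tested genes called lower. Erythrocyte markers were lower without overlap too, at 6.23 to 6.97 against 7.10 to 7.68, with 3 of 5 genes called lower. So was the mean of the mammary epithelium list, at 1.587 to 1.777 against 1.795 to 1.919, with both tested genes of the 8 listed called lower. Only 2 to 3 of the 8 reached 1 FPKM in a liver library, so this mean does not show that tissue in the livers. The part of these 3 lists was not tested. Hepatocyte markers overlapped, at 10.97 to 11.2 against 10.9 to 11.1. Nop16, Fbl and Polr1c were called in all 10 fits that left out 1 library of the compared groups. Nolc1 was called in 9 of them, Polr1b in 6, Npm1 in 5 and Nop2 in 3, and the count of members called was 3 without vehicle replicate 2 and 4 without conjugate replicate 1.

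Glp1rWnt1-/- livers gave no call in the group and none among all 10858 genes (0% higher and 0% lower by limma). Of the members, 2 had an unadjusted p under 0.05, where 9.65% of all genes did. Nop16 had the smallest p, with knockout libraries at 12.03, 11.5, 12.9, 12.2 and 12.5 FPKM, all above the vehicle libraries given above (log2 fold change 0.22 ± 0.051 (SE), adjusted p = 0.14). It was the only member without overlap, as were 0.635% of all genes in that direction. Nolc1 stood at 7.92, 7.12, 6.32, 8.12 and 7.24 FPKM (log2 fold change 0.20 ± 0.090 (SE), adjusted p = 0.49) and Rrs1, a factor that brings the 5S ribonucleoprotein into the large subunit, at 10.7, 8.76, 8.75, 10.9 and 8.47 FPKM against 7.77, 7.58, 8.84, 9.97 and 7.52 FPKM under vehicle (log2 fold change 0.17 ± 0.092 (SE), adjusted p = 0.571). These libraries overlapped the vehicle range. The remaining genes followed in every group had knockout ranges of 2.03 to 2.295 FPKM for Polr1a, 15.7 to 18.8 for Fbl, 17.4 to 19.9 for Ncl and 58.1 to 65.6 for Npm1, with log2 fold changes of 0.0023, -0.029, -0.047 and -0.085. Myc ran from 0.839 to 9.10 FPKM, the top value in replicate 3 alone. The median member changed by 0.032 against -0.038 for all genes, and 23 of 39 members were positive. That count was 17 after rescaling to a common sum and 31 with median-of-ratios scaling. Of the other lists 0 genes were called by limma, and an unadjusted p under 0.05 was found for 4 of 134 further biogenesis factors, 2 of 79 ribosomal protein genes, 2 of 12 host genes of small nucleolar RNAs and 0 of 8 Myc network genes.

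In Gipr-line liver under the conjugate no member was called, where 1.17% of 11201 genes were called higher and 3.17% lower; by limma 4 members had an unadjusted p under 0.05, against 20.1% of all genes. Npm1 came nearest, at 67.7, 70.4, 71.3, 80.6 and 72.9 FPKM under vehicle and 91.2, 78.6, 128, 90.2 and 80.4 FPKM under the conjugate (log2 fold change 0.34 ± 0.12 (SE), adjusted p = 0.12). Replicate 3 was the highest conjugate library and replicates 2 and 5 lay inside the vehicle range. Utp14a stood at 4.12, 4.60, 4.35, 5.36 and 4.81 FPKM under vehicle and 6.21, 6.59, 8.26, 5.40 and 4.01 FPKM under the conjugate (log2 fold change 0.30 ± 0.13 (SE), adjusted p = 0.191), and Polr1c at 8.43, 9.54, 10.4, 10.9 and 10.2 FPKM under vehicle and 9.67, 11.4, 16.3, 11.7 and 11.7 FPKM under the conjugate (log2 fold change 0.26 ± 0.11 (SE), adjusted p = 0.198). Both overlapped. Without conjugate replicate 5, Utp14a was called (log2 fold change 0.42, adjusted p = 0.0197), with the count of members at 2. Over its 12 alternatives other than leaving out 1 library the adjusted p ran from 0.023 to 0.347. Fbl stood at 12.2, 24.2, 27.6, 24.1 and 24.03 FPKM under the conjugate against 18.1 to 24.1 under vehicle (log2 fold change 0.011 ± 0.18 (SE), adjusted p = 0.986), with replicate 1 far below the rest. Ncl ran from 19.5 to 23.4 FPKM under vehicle and 22.01 to 30.99 under the conjugate (log2 fold change 0.18 ± 0.10 (SE), adjusted p = 0.342), and Polr1a from 1.90 to 2.90 and 2.01 to 2.92 (log2 fold change 0.034 ± 0.095 (SE), adjusted p = 0.908). Median change was 0.029 against -0.030 for all genes, with 23 of 39 positive. Of 79 ribosomal protein genes 0 were called by limma and 15 had an unadjusted p under 0.05, and of 8 Myc network genes 0 were called and 2 had one. Of 12 host genes of small nucleolar RNAs 2 were called higher, Snhg1 (8.57 to 14.3 FPKM, log2 fold change 0.65 ± 0.17 (SE), adjusted p = 0.049) and Snhg5 (3.99 to 5.41 FPKM, log2 fold change 0.36 ± 0.10 (SE), adjusted p = 0.0496). Of 135 further biogenesis factors 1 was called, lower, the exosome subunit Exosc7 (21.4 to 15.6 FPKM, log2 fold change -0.43 ± 0.10 (SE), adjusted p = 0.0252).

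GiprSyn-/- livers had no called member either, where 1.44% of 11201 genes were called higher and 8.92% lower; 3 members had an unadjusted p under 0.05 by limma, against 24.1% of all genes. Mrto4, which docks on the large subunit where the stalk proteins later bind, stood at 10.97, 12.6, 13.1, 11.999 and 11.6 FPKM under vehicle and 9.64, 8.55, 10.5, 11.99 and 10.8 FPKM in the knockout (log2 fold change -0.21 ± 0.084 (SE), adjusted p = 0.133). Nop16 stood at 11.3, 12.3, 11.9, 10.99 and 9.74 FPKM under vehicle and 13.3, 11.2, 13.5, 12.9 and 14.1 FPKM in the knockout (log2 fold change 0.19 ± 0.091 (SE), adjusted p = 0.206). Nhp2, an H/ACA protein, stood at 8.09, 13.3, 12.4, 10.9 and 18.2 FPKM under vehicle and 9.48, 8.15, 8.92, 9.38 and 9.17 FPKM in the knockout (log2 fold change -0.40 ± 0.19 (SE), adjusted p = 0.206), and its vehicle libraries were widely spread. The groups overlapped for all 3. The direction over the group followed the scaling. As deposited, 6 of 39 members were positive, with a median of -0.071 against -0.11 for all genes. With median-of-ratios scaling 29 were positive, with a median of 0.043 against 0.013, and Nop16 was called higher (log2 fold change 0.33, adjusted p = 0.0237). Rescaled to a common sum 2 were positive and Mrto4 was called lower (log2 fold change -0.31, adjusted p = 0.0442). Over the 12 alternatives other than leaving out a library the adjusted p of Nop16 ran from 0.0133 to 0.539 and that of Mrto4 from 0.0442 to 0.779. Knockout ranges were 1.86 to 2.45 FPKM for Polr1a, 18.2 to 27.1 for Fbl, 18.4 to 23.4 for Ncl and 64.2 to 86.8 for Npm1, each overlapping vehicle, with log2 fold changes of -0.025, -0.035, -0.063 and 0.019. Of 135 further biogenesis factors 3 were called lower and 0 higher, namely Rrp36 (10.5 to 6.69 FPKM, log2 fold change -0.58 ± 0.13 (SE), adjusted p = 0.0124), Exosc7 (21.4 to 14.9 FPKM, log2 fold change -0.50 ± 0.10 (SE), adjusted p = 0.00451) and Tsr2 (3.31 to 2.40 FPKM, log2 fold change -0.34 ± 0.084 (SE), adjusted p = 0.0182). By limma 0 of 79 ribosomal protein genes, 0 of 12 host genes and 0 of 8 Myc network genes were called, with 0, 1 and 0 at an unadjusted p under 0.05.

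Myc was uneven across Gipr-line livers. It stood at 0.746, 0.792, 1.70, 1.22 and 1.47 FPKM under vehicle, 0.475, 1.499, 8.13, 0.921 and 1.08 FPKM under the conjugate and 0.534, 1.77, 0.567, 0.656 and 11.98 FPKM in the knockout. Conjugate replicate 3 and knockout replicate 5 were high and all other libraries lay at 1.77 FPKM or below. Knockout replicate 5 also had the highest macrophage, T cell and proliferation marker means of the table, at 5.42, 1.80 and 1.40, and their part was not tested. Myc was not called under the conjugate (log2 fold change 0.31 ± 0.56 (SE), adjusted p = 0.837) or in the knockout (log2 fold change 0.33 ± 0.56 (SE), adjusted p = 0.781). Pancreas acinar markers were present in part of these livers, at a mean of 0.489 to 8.13 under vehicle, 0.587 to 9.04 under the conjugate and 0.630 to 7.67 in the knockout. With that mean as a term the count of members called was again 0 in both contrasts. Adipocyte markers were lower in these livers than under vehicle (2.19 to 2.40), at 1.33 to 2.16 under the conjugate and 1.39 to 1.51 in the knockout. Erythrocyte markers were at 7.22 to 7.75 under vehicle, 5.95 to 7.35 under the conjugate, with 3 of 5 genes called lower, and 6.59 to 7.03 in the knockout, where the ranges did not overlap. Hepatocyte markers were at 10.7 to 10.95 under vehicle, 10.95 to 11.3 under the conjugate and 10.99 to 11.2 in the knockout, with 1 and 2 of 8 genes called higher. The part of these 3 lists was not tested.

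Adipose libraries with many B cell markers also had high levels of ribosome biogenesis genes. In the Glp1r line 29 of the 39 members were higher in each of the 3 libraries with a B cell marker mean above 5 than in any of the other 12, against 26.1% of all genes, and the median member differed by 0.47 on the log2 scale against 0.099 for all genes. Myc stood at 11.95 to 15.4 FPKM in the 3 libraries and 2.64 to 10.1 in the rest, Fbl at 31.8 to 52.6 against 12.7 to 24.9, and Npm1 at 153 to 234 against 75.5 to 127. In the Gipr line 11 of 39 members were higher in each of the 3 such libraries than in any other, against 16.1% of all genes, with a median difference of 0.34 against 0.084. Npm1 ran there from 195 to 216 FPKM against 100.4 to 182, and Heatr1 from 5.74 to 7.94 against 2.49 to 5.06. Myc and Fbl overlapped in the Gipr line, at 9.01 to 12.96 FPKM against 4.59 to 9.51 and 28.1 to 44.1 against 12.9 to 28.4. Nop16, Wdr12 and Nop10 showed no such gap in either line. These libraries belong to different groups, were chosen by the marker limit and not by the study, and no test was made between them and the rest. After removing group means the median pairwise correlation over 741 pairs of members was 0.84 in Glp1r-line and 0.50 in Gipr-line adipose tissue. In the livers it was 0.19 and 0.40. Each value is over 15 libraries of 1 table, whose points share library and scaling. The same correlation was not computed over other genes, so it is not read as a trait of the members.

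**Figure D4:**
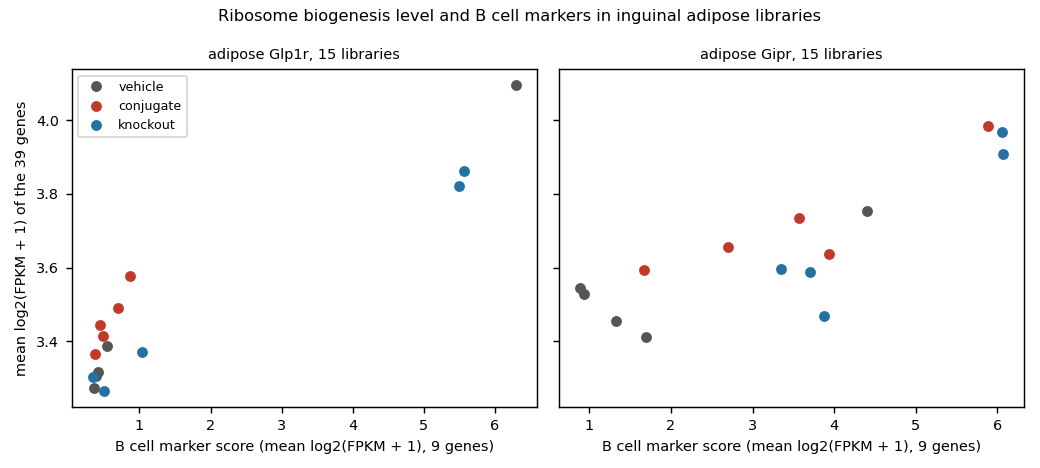
Mean log2(FPKM + 1) of the 39 genes (y axis) against the mean over 9 B cell markers (x axis) in 15 adipose libraries of the Glp1r line (left) and 15 of the Gipr line (right), coloured by group. The 3 libraries above 5 on the x axis have the highest member means in each panel, 3.82 to 4.10 on the left and 3.91 to 3.98 on the right.

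In Glp1r-line adipose tissue the conjugate went with a lower level of 1 member, Nhp2, and a higher level of 0, where 2.31% of 12686 genes were called higher and 1.08% lower. Nhp2 stood at 21.8, 24.5, 23.1, 20.3 and 24.2 FPKM under vehicle and 15.8, 18.1, 18.5, 15.9 and 20.3 FPKM under the conjugate. Every conjugate library was below every vehicle library, by a narrow margin at replicate 5 (log2 fold change -0.35 ± 0.086 (SE), adjusted p = 0.0427). The call was lost in 7 of 10 fits that left out 1 library, where the adjusted p ran from 0.0193 to 0.124: without vehicle replicate 1, 3, 4 or 5 or conjugate replicate 1, 3 or 4. Without vehicle replicate 2 or conjugate replicate 5 there were 2 calls. Rrs1 stood at 10.7, 13.3, 9.64, 9.31 and 9.16 FPKM under vehicle and 14.7, 12.01, 14.96, 13.8 and 12.04 FPKM under the conjugate, overlapping only through vehicle replicate 2 (log2 fold change 0.35 ± 0.10 (SE), adjusted p = 0.0721). Rrp12 stood at 4.05, 5.43, 3.95, 3.87 and 4.52 FPKM under vehicle and 3.12, 3.77, 2.84, 3.05 and 3.56 FPKM under the conjugate, lower without overlap and not called (log2 fold change -0.33 ± 0.14 (SE), adjusted p = 0.233). Nhp2 and Rrp12 were the members without overlap, and 1.31% of all genes were lower in that way. Over the group 18 of 39 members were positive, with a median of -0.022 against 0.047 for all genes.

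Vehicle replicate 2 is 1 of the libraries rich in B cell markers, and it set the vehicle spread of many members. Myc stood at 2.86, 15.4, 2.69, 2.64 and 2.83 FPKM under vehicle and 4.59, 3.55, 7.07, 5.42 and 10.1 FPKM under the conjugate (log2 fold change 0.43 ± 0.47 (SE), adjusted p = 0.736). Outside vehicle replicate 2 every conjugate library was above every vehicle library. Npm1 stood at 81.7, 234, 84.6, 81.2 and 88.5 FPKM under vehicle and 75.5, 79.5, 86.8, 87.3 and 127 FPKM under the conjugate (log2 fold change -0.20 ± 0.30 (SE), adjusted p = 0.836), and Fbl at 15.04, 52.6, 14.8, 14.7 and 16.1 FPKM under vehicle and 13.7, 12.7, 15.5, 15.2 and 24.9 FPKM under the conjugate (log2 fold change -0.28 ± 0.34 (SE), adjusted p = 0.78). For both, conjugate replicate 5 was the highest of its group. It also had the highest macrophage marker mean of the table, 6.42 against 4.94 or below, and the part of these markers was not tested. Ncl ran from 28.9 to 53.4 FPKM under vehicle and 30.6 to 35.3 under the conjugate (log2 fold change -0.029 ± 0.18 (SE), adjusted p = 0.968), and Polr1a from 4.08 to 6.39 and 4.26 to 4.99 (log2 fold change -0.055 ± 0.12 (SE), adjusted p = 0.891). Without the 3 libraries rich in B cell markers, 9 members were called, against 21.1% of 12394 genes in either direction. Dkc1, Myc, Nob1, Nop58, Polr1b, Rrs1 and Wdr43 were then higher and Nhp2 and Rrp12 lower, and the median member changed by 0.13 against 0.12 for all genes. Rrs1 then had a log2 fold change of 0.44, adjusted p = 0.00963, and over its 12 alternatives other than leaving out 1 library the adjusted p ran from 4.86e-05 to 0.186. Of 79 ribosomal protein genes 0 were called in this contrast and 0 had an unadjusted p under 0.05 with all libraries; of 138 further biogenesis factors 0 were called and 7 had one, of 12 host genes 0 and 1, and of 9 Myc network genes 0 and 1 (limma).

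Glp1rWnt1-/- adipose tissue gave 0 calls in the group and 0 among 12686 genes by limma (0% in either direction), with 2 members and 4.67% of all genes at an unadjusted p under 0.05. Nhp2 had the smallest p, with knockout libraries at 22.3, 18.7, 20.1, 17.3 and 18.6 FPKM (log2 fold change -0.22 ± 0.086 (SE), adjusted p = 0.983). Wdr12, of the complex with Pes1 and Bop1 that matures the large subunit, stood at 5.61, 6.52, 6.08, 5.60 and 5.48 FPKM under vehicle and 5.28, 5.25, 5.79, 4.84 and 4.39 FPKM in the knockout (log2 fold change -0.17 ± 0.078 (SE), adjusted p = 0.983), and Rrs1 at 11.99, 11.97, 12.5, 13.4 and 10.6 FPKM in the knockout (log2 fold change 0.21 ± 0.10 (SE), adjusted p = 0.983). All overlapped. Myc stood at 12.2, 2.75, 11.95, 3.32 and 3.96 FPKM and Npm1 at 189, 83.6, 153, 93.2 and 84.7 FPKM, high in replicates 1 and 3, the libraries rich in B cell markers. Fbl at 15.3 to 34.2, Ncl at 27.3 to 47.8 and Polr1a at 3.88 to 5.65 FPKM were spread in the same way, with log2 fold changes of 0.11, 0.013 and -0.078. Over the group 29 of 39 members were positive, with a median of 0.032 against 0.041 for all genes, and 18 with a median of -0.011 under median-of-ratios scaling. Without the 3 libraries rich in B cell markers 0 members and 0% of 12394 genes were called by limma, and 5 members had an unadjusted p under 0.05. The share of all genes at that level was not counted, so the 5 are not read as a result about the members. In that fit 21 of 39 were positive, with a median of 0.0094 against 0.027 for all genes. Of the other lists 0 genes were called by limma, and 1 of 9 Myc network genes had an unadjusted p under 0.05, against 0 of 138 further biogenesis factors, 0 of 79 ribosomal protein genes and 0 of 12 host genes.

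In Gipr-line adipose tissue under the conjugate no member passed the threshold, where 4.26% of 13604 genes were called higher and 2.76% lower; by limma 5 members had an unadjusted p under 0.05, against 24.1% of all genes. Rrs1 came nearest, at 7.81, 8.25, 7.90, 7.69 and 8.14 FPKM under vehicle and 12.4, 10.2, 10.8, 10.8 and 15.1 FPKM under the conjugate, with no overlap (log2 fold change 0.51 ± 0.15 (SE), adjusted p = 0.0535). Nop14, an assembly factor of the small subunit, stood at 9.68, 11.8, 8.67, 10.9 and 9.01 FPKM under vehicle and 13.3, 11.4, 11.9, 12.3 and 12.4 FPKM under the conjugate, overlapping through vehicle replicate 2 alone (log2 fold change 0.28 ± 0.090 (SE), adjusted p = 0.0775). Myc stood at 5.36, 6.16, 4.59, 5.73 and 4.82 FPKM under vehicle and 12.4, 7.15, 7.31, 6.87 and 9.51 FPKM under the conjugate, also with no overlap (log2 fold change 0.58 ± 0.21 (SE), adjusted p = 0.105). Nob1, the nuclease that makes the final cut of small-subunit RNA, was the third member higher without overlap, at 5.76 to 7.36 FPKM under vehicle and 7.71 to 12.5 FPKM under the conjugate (log2 fold change 0.43 ± 0.17 (SE), adjusted p = 0.144); 7.51% of all genes were higher without overlap. Fold changes were positive for 34 of 39 members, with a median of 0.17 against 0.11 for all genes, and for 27 with a median of 0.074 against 0.026 under median-of-ratios scaling. Fbl ran from 18.5 to 22.7 FPKM under vehicle and 18.2 to 44.1 under the conjugate, Npm1 from 100.4 to 182 and 117 to 195, Ncl from 33.2 to 45.3 and 37.03 to 47.2, and Polr1a from 3.59 to 5.82 and 4.32 to 6.40, all overlapping. B cell marker means were 1.67 to 5.89 in the conjugate group and 0.888 to 4.41 under vehicle, and proliferation marker means were 1.34 to 1.97 and 2.19 to 2.46, without overlap, with 2 of 9 genes called lower. Endothelial marker means were also lower without overlap, at 5.45 to 5.93 against 5.947 to 6.154, with 0 of 6 genes called and 3 at an unadjusted p under 0.05 (limma). The part of these 2 lists was not tested. Without the libraries above 5 for B cell markers Rrs1 (log2 fold change 0.49, adjusted p = 0.0372) and Myc (log2 fold change 0.46, adjusted p = 0.0401) were called, against 6.99% of 13271 genes. Of the compared groups this fit dropped conjugate replicate 1 only. Conjugate replicates 2, 3 and 5 stayed, at 2.70, 3.94 and 3.57, and replicate 4 at 1.67. Vehicle libraries lay at 0.888 to 1.70 apart from replicate 2, at 4.41. The fit therefore kept a difference in B cell markers between the groups. Over the 13 alternatives other than leaving out 1 library the adjusted p of Rrs1 ran from 0.00257 to 0.146 and that of Myc from 0.00636 to 0.361. Without conjugate replicate 2 there was 1 call. With the B cell marker mean as a term the median member changed by -0.0051 and 0 members were called.

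GiprSyn-/- adipose tissue had higher levels of 3 members, Rrs1, Dkc1 and Nop14, and lower levels of 0, where 6.61% of 13604 genes were called higher and 5.67% lower. Rrs1 stood at 8.92, 14.6, 11.3, 10.1 and 17.3 FPKM in the knockout, all above the vehicle libraries (log2 fold change 0.55 ± 0.15 (SE), adjusted p = 0.0297). It was the member without overlap, as were 6.24% of all genes in that direction. Dkc1, the enzyme of the H/ACA particles, stood at 7.87, 13.99, 8.18, 8.69 and 7.50 FPKM under vehicle and 17.6, 14.9, 11.7, 13.1 and 15.6 FPKM in the knockout, overlapping through vehicle replicate 2 alone (log2 fold change 0.63 ± 0.19 (SE), adjusted p = 0.0412). Nop14 stood at 13.7, 11.5, 11.7, 12.2 and 13.4 FPKM, overlapping through the same library (log2 fold change 0.30 ± 0.090 (SE), adjusted p = 0.044). Vehicle replicate 2 had the highest B cell marker mean of its group, 4.41. Fold changes were positive for 31 of 39 members, with a median of 0.17 against 0.087 for all genes. The calls were 3 higher and 0 lower as deposited, 1 and 1 under median-of-ratios scaling and 0 and 1 under quantile normalization, where Nop16 was the member called lower. Leaving out vehicle replicate 1, 3, 4 or 5 or knockout replicate 2 left 0 calls, and leaving out knockout replicate 1 or 5 left 1. Myc stood at 9.01, 6.28, 6.25, 4.78 and 12.96 FPKM and overlapped vehicle (log2 fold change 0.42 ± 0.21 (SE), adjusted p = 0.183). Npm1 stood at 216, 115, 123, 147 and 199 FPKM (log2 fold change 0.29 ± 0.22 (SE), adjusted p = 0.372). Knockout replicates 1 and 5 were the highest for both. Fbl ran from 12.9 to 42.2, Ncl from 34.5 to 51.5 and Polr1a from 4.05 to 6.34 FPKM, with log2 fold changes of 0.25, 0.16 and 0.060.

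All 5 knockout libraries had B cell marker means of 3.35 to 6.07, and 4 of the 5 vehicle libraries lay between 0.888 and 1.70. Of the 9 B cell genes 6 were called higher and 9 had an unadjusted p under 0.05 (limma), with a median log2 fold change of 2.89. T cell marker means ran from 2.51 to 5.03 in the knockout and 1.14 to 3.87 under vehicle, with 0 of 8 genes called and 8 at an unadjusted p under 0.05 (limma). Endothelial marker means were lower without overlap, at 5.31 to 5.77 against 5.947 to 6.154, with 1 of 6 genes called lower. Of the macrophage and proliferation markers 2 of 7 and 2 of 9 were called lower, with overlapping means. Hepatocyte marker means were higher without overlap, at 1.59 to 1.78 against 1.31 to 1.55, and pancreas acinar marker means lower, at 0.364 to 0.530 against 0.580 to 0.624. Only 2 of the 8 hepatocyte genes were tested, with 1 called higher, and 1 of the 10 acinar genes, called lower. These low means do not show those cells in the fat. The part of these lists was not tested. Without the libraries above 5, Rrs1 alone was called, against 5.69% of 13271 genes, and the median member changed by -0.00024. Knockout replicates 2, 3 and 4 stayed in that fit, at B cell marker means of 3.35 to 3.87. With the B cell marker mean as a term 0 members were called, the median was -0.12, and Dkc1 had a log2 fold change of 0.20, adjusted p = 0.674. Over the 13 alternatives other than leaving out 1 library the adjusted p of Dkc1 ran from 0.00218 to 0.674, that of Rrs1 from 0.00128 to 0.272 and that of Nop14 from 0.0114 to 0.568. Among 138 further biogenesis factors 9 were called higher and 0 lower in the knockout, where 6.61% of all 13604 genes were called higher and 5.67% lower. Under the conjugate 7 were called higher and 0 lower, against 4.26% and 2.76% of all genes. In both contrasts the counts called higher lie near the all-gene shares. Las1l, which cuts the spacer of the ribosomal RNA precursor, was higher in both, with 15.6 to 20.8 FPKM, log2 fold change 0.39 ± 0.077 (SE), adjusted p = 0.00703 in the knockout and log2 fold change 0.50 ± 0.077 (SE), adjusted p = 0.00246 under the conjugate. By the limit of 3 genes per role, Imp3, Tsr2, Snu13, Rpf1, Ddx27, Znhit6 and Exosc10 had log2 fold changes of 0.56, 0.30, 0.28, 0.43, 0.32, 0.37 and 0.29 in the knockout, and 1 further small-subunit factor was called higher with a smaller change than the 3 of its role. Under the conjugate Snu13, Utp11, Ddx27, Ddx24, Exosc1 and Exosc10 had 0.31, 0.28, 0.38, 0.26, 0.38 and 0.34. Mycl, a relative of Myc, was the 1 of 8 Myc network genes called in the knockout (1.48 to 6.99 FPKM, log2 fold change 1.63 ± 0.28 (SE), adjusted p = 0.00377), with 0 called under the conjugate and 2 at an unadjusted p under 0.05 (limma). Of 12 host genes 1 was called in each, Snhg12, with 0.52 under the conjugate and 0.57 in the knockout. Of 79 ribosomal protein genes 1 was called in each contrast, Rpl21, with log2 fold changes of 0.60 and 0.59. Both contrasts use the same 5 vehicle libraries.

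**Figure D5:**
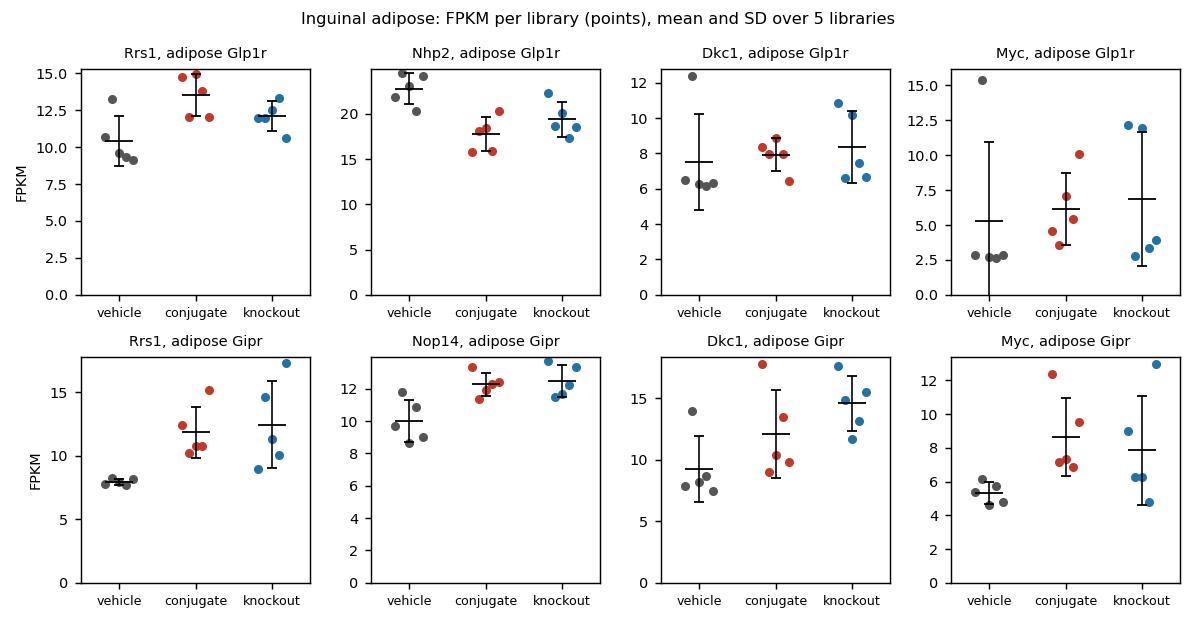
FPKM per library (points) in inguinal adipose tissue for Rrs1, Nhp2 or Nop14, Dkc1 and Myc, Glp1r line above and Gipr line below, with the mean and SD over 5 libraries (black; the SD of Myc in the Glp1r vehicle group is cut at 0). The Rrs1 vehicle points of the Gipr line lie within 7.69 to 8.25 FPKM, below all conjugate and knockout points.

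Liver and adipose effects were compared directly as the liver effect minus the adipose effect of a line. For the conjugate in the Glp1r line 1 member differed, where 3.75% of 9834 genes did. Nop16 had a log2 fold change of 0.33 in liver and -0.059 in adipose tissue, a difference of 0.39 ± 0.092 (SE), adjusted p = 0.0163. It was called in all 20 fits that left out 1 library. Its liver part compares conjugate and vehicle livers whose estimated depth did not overlap. No depth term was fitted to the tissue differences, so treatment and depth cannot be told apart here either. The members' median difference was 0.16 against -0.027 for all genes, and 0.010 against -0.095 without the libraries rich in B cell markers, where Nop16 and Rrp12 were called. Over its 8 alternatives other than leaving out 1 library the adjusted p of Nop16 ran from 0.0125 to 0.0506. For the Glp1rWnt1-/- knockout 0 members differed and 0% of genes did, with 2 members and 4.67% of genes at an unadjusted p under 0.05 (limma). For the conjugate in the Gipr line 0 members differed, where 5.59% of 10236 genes did, with 0 members and 20.3% of genes at an unadjusted p under 0.05 (limma). Without the libraries rich in B cell markers 0 members differed in both of these comparisons, with 4 and 1 at an unadjusted p under 0.05 (limma). The share of all genes at that level was not counted there, so neither count is read as a result about the members.

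For the GiprSyn-/- knockout 3 members differed between the tissues, where 10.3% of 10236 genes did. The Dkc1 effect was -0.065 in liver and 0.63 in adipose tissue, a difference of -0.69 ± 0.20 (SE), adjusted p = 0.0267. Rrs1 followed with -0.15 and 0.55, a difference of -0.70 ± 0.21 (SE), adjusted p = 0.035. Nop16 went the other way, with 0.19 in liver and -0.19 in adipose tissue, a difference of 0.38 ± 0.12 (SE), adjusted p = 0.0358. The count ran from 0 to 6 as single libraries were left out, reaching 0 without adipose vehicle replicate 1 or 5 and 6 without adipose vehicle replicate 2. It was 1 without liver vehicle replicate 4 or 5, liver knockout replicate 1, 3 or 4 or adipose vehicle replicate 4, and 5 without adipose knockout replicate 3. The calls were 1 higher and 2 lower as deposited, 0 and 3 after rescaling to a common sum and 1 and 0 under median-of-ratios scaling and quantile normalization. Without the libraries rich in B cell markers Dkc1, Rrs1 and Nop10 were called, each with the lower effect in liver, against 8.49% of 10178 genes, and Nop16 was not (difference 0.40, adjusted p = 0.0522). The conjugate effect was also compared between the lines. In liver 0 members and 0% of 10640 genes differed, with 6 members and 5.86% of genes at an unadjusted p under 0.05. In adipose tissue 0 members and 0% of 12541 genes differed, with 0 members and 3.48% of genes at that level, and 0 members were called, with 0 at that level, without the libraries rich in B cell markers. Nolc1 had the smallest p of the liver comparison, with effects of -0.17 in the Gipr line and 0.37 in the Glp1r line, a difference of -0.54 ± 0.13 (SE), adjusted p = 0.819. The 7 calls of Glp1r-line liver and the absence of calls in Gipr-line liver were therefore not shown to differ.

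Spread between libraries of 1 group was lowest in Glp1r-line liver. The median member had an SD of 0.12 on the log2(FPKM + 1) scale there, 0.17 in Gipr-line liver, 0.27 in Glp1r-line adipose and 0.25 in Gipr-line adipose tissue, against 0.12, 0.19, 0.24 and 0.23 for all genes tested. Myc was the most variable member in 3 tables, with SDs of 0.69, 0.98 and 0.80, and Rrp9, a protein of the U3 particle, was the most variable in Gipr-line adipose tissue, with 0.49. Rrp1 was the steadiest in Glp1r-line liver, Polr1b in Gipr-line liver, Wdr12 in Glp1r-line adipose and Nop16 in Gipr-line adipose tissue. Counted by role, 28 members were called in none of the 8 contrasts. They were Polr1a among the polymerase subunits, Nop56 and Nop58 of the C/D particle, Gar1 and Nop10 of the H/ACA particle, and Ncl and Myc. Of the 11 small-subunit members 10 were among them, Utp14a, Utp15, Utp20, Heatr1, Wdr43, Wdr75, Rrp9, Rrp12, Noc4l and Nob1. Of the 14 large-subunit members 11 were, Bop1, Pes1, Wdr12, Noc2l, Noc3l, Rrp1, Nip7, Ppan, Gnl3, Mrto4 and Ddx21. Values not called lay between -0.40 (Nhp2, GiprSyn-/- liver) and 0.58 (Myc, Gipr-line adipose tissue under the conjugate) on the log2 scale.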

How the data were processed

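Liver and inguinal adipose RNA of 60 mouse libraries was sequenced as stranded mRNA libraries, per the labels' protocols. The authors deposited 4 tables of FPKM, 1 per tissue and line, and the submitters' processing notes name RSEM. How reads were aligned, to which build and with which annotation, was not given in the sources used here. Depth was estimated from the smallest FPKM steps and gene lengths, since no counts were used.

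Values were taken as log2(FPKM + 1), which understates changes of low genes. Genes with at least 1 FPKM in at least 5 of 15 libraries were fitted with limma 3.58.1 (trend) in R 4.3.3, in 1 model per table. The adjusted p is Benjamini-Hochberg over all genes tested, two-sided, called under 0.05. Tissue and line differences are interaction terms. Every member is accounted for. Members called are named, at most 6 per contrast by library, and where fewer than 3 were called the 3 of smallest p. Myc, Npm1, Ncl, Fbl and Polr1a are given throughout, and up to 3 called genes of each other list. The members and lists were chosen with earlier results of these data known. The fits were tested on simulated data. Alternatives were other pseudocounts, filters, scalings, weights, terms and left-out libraries, the effect of which closes the text.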

Additional observations from a re-analysis of the deposited data

Results flagged for a closer look

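In groups of 5 libraries, 16 of 99 member values examined had a library far from the others, where the gap to the nearest library was more than 0.71 of the whole range. Chance alone gives this in about 1 in 20 groups, and members that vary together are not separate cases. In Glp1r-line adipose tissue vehicle replicate 2 stood apart for Fbl (52.62 FPKM), Ncl (53.36 FPKM), Npm1 (233.8 FPKM), Myc (15.36 FPKM) and the mean over all members (4.096 on the log2 scale), and it is the library with the highest B cell marker mean. Conjugate replicate 5 of the same tissue stood apart for Fbl (24.94 FPKM) and Npm1 (127.5 FPKM). In Gipr-line adipose tissue vehicle replicate 2 was high for Dkc1 (13.99 FPKM) and conjugate replicate 1 for Npm1 (195.1 FPKM).

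Among livers, Myc was high in Glp1rWnt1-/- replicate 3 (9.102 FPKM), Gipr-line conjugate replicate 3 (8.135 FPKM) and GiprSyn-/- replicate 5 (11.98 FPKM). Gipr-line conjugate replicate 3 was also high for Npm1 (127.8 FPKM), and conjugate replicate 1 was low for Fbl (12.18 FPKM). Polr1a was low in Glp1rWnt1-/- replicate 4 (2.028 FPKM) and high in Gipr-line vehicle replicate 4 (2.897 FPKM).

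The effect of a group differed between liver and adipose tissue by an interaction test for 4 results. For the conjugate in the Glp1r line the Nop16 difference was 0.39, where treatment and depth cannot be told apart in liver. For the GiprSyn-/- knockout the differences were -0.69 for Dkc1, -0.70 for Rrs1 and 0.38 for Nop16, all as liver minus adipose log2 fold change.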

How the results depend on the processing

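Counts of members called are given here against the values reported, in the order of the settings tried. For the conjugate in Glp1r-line liver (7 reported) the count was 3 with no filter, 4 rescaled to a common sum, 4 with a pancreas acinar marker term and 0 with a depth term, where Polr1c reversed to -0.11. Array weights gave 1 for the Glp1rWnt1-/- livers, the Gipr-line conjugate livers, the GiprSyn-/- livers and the Glp1rWnt1-/- adipose tissue (0 reported for each). The Gipr-line conjugate livers also gave 1 without the libraries whose names carry the higher number series, and the GiprSyn-/- livers 1 each with a common sum, median-of-ratios scaling and quantile normalization. For the conjugate in Glp1r-line adipose tissue (1 reported) the count was 0 with no filter, a common sum, the 2 groups alone or a depth term, 13 with array weights, 9 without the libraries rich in B cell markers and 10 with a B cell marker term. For the conjugate in Gipr-line adipose tissue (0 reported) it was 1 with a pseudocount of 0.1 or a depth term, 9 with array weights, 2 with the 2 groups alone and 2 without the libraries rich in B cell markers. For the GiprSyn-/- adipose tissue (3 reported) it was 0 with no filter or a B cell marker term, 1 with a common sum, quantile normalization, a depth term or without the libraries rich in B cell markers, and 7 with array weights. The tissue difference of the Glp1r-line conjugate effect (1 reported) was 2 with a common sum, median-of-ratios scaling, quantile normalization and, an alternative chosen after seeing the data, without the libraries rich in B cell markers. That of the GiprSyn-/- effect (3 reported) was 1 with median-of-ratios scaling or quantile normalization. The share of all genes called under each setting is not given beside these counts, so they are not read as a trait of the members. The cause of these changes was not tested.

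With single libraries left out, counts ran from 3 to 9 and 0 to 0 in Glp1r-line liver (conjugate, knockout), 0 to 2 and 0 to 0 in Gipr-line liver, 0 to 2 and 0 to 0 in Glp1r-line adipose tissue and 0 to 1 and 0 to 4 in Gipr-line adipose tissue. Tissue differences ran from 1 to 2 and 0 to 0 in the Glp1r line and 0 to 0 and 0 to 6 in the Gipr line, and line differences were 0 throughout. The share of all genes called is not given beside counts with a left-out library, here or above. These counts are therefore not read as a trait of the members.

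Same-numbered libraries of vehicle and another group in 1 table showed no steady agreement (correlations of -0.843 to 0.571). This gave no sign of a pairing by number but cannot exclude one, and liver was not compared with adipose tissue. With the replicate number as a block, the paired count was 9 for the conjugate in Glp1r-line liver, 0 for it in Glp1r-line adipose tissue, 1 for it in Gipr-line adipose tissue and 3 for the GiprSyn-/- adipose tissue. No share of all genes is given beside these counts either. Of the values of single named genes, 394 stayed on their side of the threshold under the other settings, 49 lost and 24 gained a call, and 1 reversed. Leaving out libraries kept 564, with 72 lost and 4 gained. Depth is estimated, so no counting interval is given, and members near 1 FPKM, Rrp12 and Myc in liver, are the least precise.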
